A study of Mus musculus with 12 samples.

Results

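Gene expression was compared between livers of hepatocyte Shp-knockout mice fed the diet that the labels call HFCF and livers of the same genotype fed chow, with 3 livers per diet. All 14736 genes with enough counts, of 15846 in the table, were taken, and these 6 livers were among the 12 of the series. The knockout, labelled Shp Hep-/- and called KO below, was on the C57BL/6 strain, and every mouse was 5 months old. The other 6 livers were from wild-type (WT) mice of the same strain and age, 3 on chow and 3 on HFCF. The promoter that drove the deletion, the sex of the mice, the composition of the diet and its duration are not given in the sources used here. The labels number the livers within a group without saying whether any shared a cage or day, so p-values measure the spread between these libraries.

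SHP, the product of Nr0b2, belongs to the nuclear receptor family but lacks the part that contacts DNA. It represses transcription by binding other nuclear receptors, and in hepatocytes it is best known for feedback repression of bile acid synthesis. The liver also adjusts its own sterol synthesis to supply: when membrane sterol is plentiful, SREBP2 is kept in the endoplasmic reticulum and its target genes are less transcribed, while oxysterols activate the LXR receptors, whose targets export sterol. Acute phase proteins are plasma proteins that hepatocytes secrete in larger amounts when cytokines such as IL-6 and IL-1 reach them.

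Levels of single genes below are in CPM, counts scaled to the library total with TMM factors. Summed levels of a list were instead scaled to the library total without these factors, over all its members in the table, tested or not. The factors were 1.0011 to 1.0518 in the KO chow and 0.9608 to 0.9905 in the KO HFCF libraries. With them, KO sums on HFCF would be higher relative to those on chow. Each log2 fold change is followed by ± and its standard error, and p-values from edgeR's quasi-likelihood test were adjusted by Benjamini-Hochberg over all 14736 genes. A gene is called where the adjusted p is under 0.05. Values by library are given in the order of replicates 1, 2 and 3. Nr0b2 stood at 0.775, 0.552 and 1.01 CPM in the KO chow livers and at 0.509, 0.21 and 0.394 CPM in the KO HFCF livers (log2 fold change -1.06 ± 0.63, edgeR adjusted p = 0.409), against 22.4 to 53.4 CPM in the 6 WT livers. The 6 KO libraries held 14329648 to 18324134 counts. The first principal component of these 6 held 41.3% of the variance and separated the diets. Of the 21 hepatocyte markers edgeR called 0 (3 at an unadjusted p under 0.05, and 1 was called by DESeq2), and their summed level was 78050 to 86800 CPM on chow and 78190 to 79950 CPM on HFCF. In bulk liver, fewer cells of a type and less RNA per cell cannot be told apart.

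In KO livers the diet lowered the sterol synthesis pathway and raised sterol exporters and part of the acute phase genes. It also lowered immunoglobulin transcripts and several drug-metabolizing enzymes. Of 35 type I interferon-responsive genes 7 were called as rises, but 0 without KO chow replicate 1 or without KO HFCF replicate 1. In all, 390 genes were called (2.65% of those tested), of which 216 rose (1.47%) and 174 fell (1.18%). These shares are the background for every count over a list below. Of these, 62 rose and 66 fell by at least 2-fold. In each of the 390 called genes the CPM values of the 2 diets did not overlap, as was so for 24.4% of all tested genes. No called gene changed sign in any alternative fit. Leaving out KO chow replicate 1 gave 157 calls and KO chow replicate 2 gave 254. Leaving out KO HFCF replicate 1 gave 169 and KO HFCF replicate 2 gave 178, and 126 of the 390 calls remained whichever of the 6 libraries was left out. Genes given below with a fold change and a call belong to those 126 unless the text says that a call ended.

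**Figure D1:**
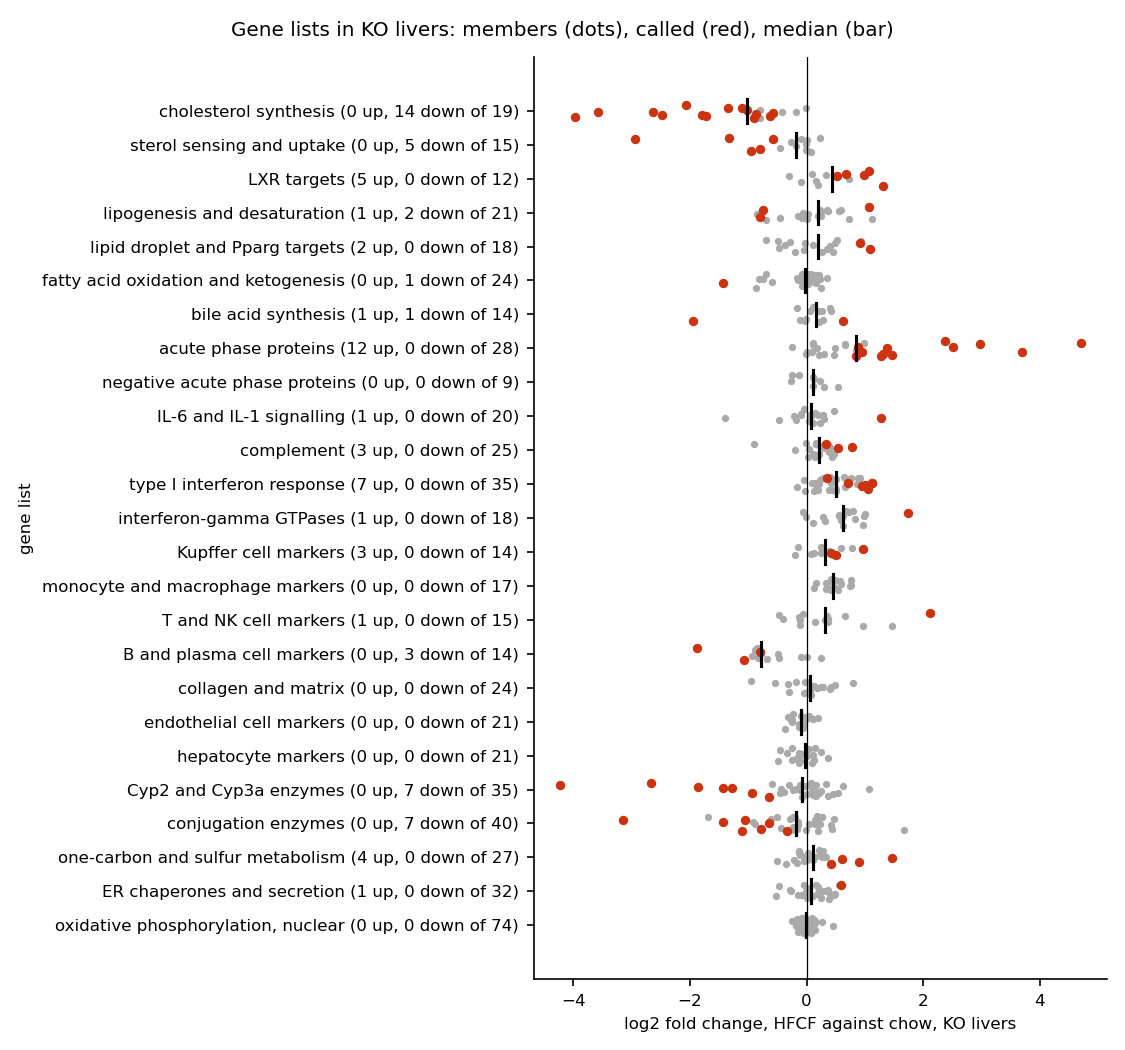
Log2 fold change of HFCF against chow in KO livers (x axis) for the tested members of 25 gene lists (y axis). Each dot is a gene, red where it was called, and the black bar is the list's median. Cholesterol synthesis genes lie to the left, with a median of -1.01, and acute phase genes to the right, with a median of 0.85, while oxidative phosphorylation genes lie near 0.

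The pathway from acetyl-CoA to cholesterol fell along most of its length. Of 19 tested members of the cholesterol synthesis list, 14 fell (background 1.18% of all genes), 0 rose and 5 were not called, and the median log2 fold change was -1.01 against 0 over all tested genes. The summed level of the list went from 1613 to 1945 CPM on chow to 947.8 to 1001 CPM on HFCF. In 18 of the 19 genes all HFCF livers lay below all chow livers, against 11.3% of all tested genes.

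Cyp51 and Idi1 were among the strongest falls, and the sequences before their start sites are shown because the 12 called sterol genes with an entry in the promoter table all carried the same short motif. Each line gives the 250 bases before the start (RefSeq, build GRCm38.p6), Cyp51 at chr5:4104698-4104947 on the minus strand and Idi1 at chr13:8885356-8885605 on the plus strand. Capitals mark the CCAAT box, the letters ATTGG on either strand, which the factor NF-Y binds, and in Cyp51 also TCACCTCAG, the sterol regulatory element known from this gene.
Cyp51: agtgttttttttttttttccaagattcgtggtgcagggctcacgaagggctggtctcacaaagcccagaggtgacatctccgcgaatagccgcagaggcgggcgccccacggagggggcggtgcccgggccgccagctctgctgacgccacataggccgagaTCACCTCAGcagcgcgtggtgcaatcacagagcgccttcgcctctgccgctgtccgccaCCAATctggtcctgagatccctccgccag
Idi1: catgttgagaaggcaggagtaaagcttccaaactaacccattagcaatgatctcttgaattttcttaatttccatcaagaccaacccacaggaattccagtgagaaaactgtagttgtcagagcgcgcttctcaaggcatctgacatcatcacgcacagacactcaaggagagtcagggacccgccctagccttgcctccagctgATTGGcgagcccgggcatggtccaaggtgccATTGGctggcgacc

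Of the 19 called genes in the cholesterol synthesis and sterol sensing lists, 12 had an entry, with 13 promoters. ATTGG stood in 12 of these promoters, 1 or more for each of the 12 genes, against 33.8% of all 32851 promoters in the table. TCACCTCAG stood in Cyp51 alone among the 12, against 0.295% of all promoters. Idi1 carried ATTGG at 45 to 41 and again at 14 to 10 bases before the start. Cyp51 carried CCAAT at 29 to 25 bases before its RefSeq start. That start lies inside the range of the counted gene, which reaches 4104746, and so does this CCAAT. Of the other sterol patterns searched, 1 stood in Hsd17b7 and the rest in 0 of these promoters. The patterns were chosen after the values were seen, so the shares carry no test. These are matches of letters, and binding was not measured.

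The early steps convert acetyl units to isoprenoids. Mvd, mevalonate diphosphate decarboxylase, fell by 1.72 ± 0.26 on the log2 scale (edgeR adjusted p = 0.0032), and Pmvk, phosphomevalonate kinase, by 0.87 ± 0.14 (edgeR adjusted p = 0.0044). Idi1, isopentenyl diphosphate isomerase (mm10 chromosome 13, 8885606 to 8892395, plus strand), went from 1.99, 1.73 and 2.77 CPM to 0.0727, 0.14 and 0.169 CPM (-3.97 ± 0.37, edgeR adjusted p = 6.85e-05). It was the largest fall among the genes that the naming rule covers, at a low level. Fdps, farnesyl diphosphate synthase, went from 21.9, 27.9 and 43.2 CPM to 5.45, 5.94 and 5.34 CPM (-2.47 ± 0.23, edgeR adjusted p = 6.08e-05).

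The later steps form and trim the sterol ring. Sqle, squalene epoxidase, went from 23.8, 36.6 and 53.1 CPM to 3.27, 2.59 and 3.54 CPM (-3.58 ± 0.27, edgeR adjusted p = 7.35e-06). Cyp51, lanosterol 14-alpha-demethylase (chromosome 5, 4081145 to 4104746, minus strand), went from 101, 110 and 122 CPM to 19.9, 15.8 and 18.2 CPM (-2.63 ± 0.14), with the lowest adjusted p of the KO comparison (edgeR adjusted p = 4.45e-07). Nsdhl fell by 2.07 ± 0.19 and Sc4mol, the sterol C4-methyl oxidase gene, by 1.80 ± 0.24 on the log2 scale. Tm7sf2 stood at -1.35 ± 0.13, Lss, lanosterol synthase, at -1.01 ± 0.12 and Hsd17b7 at -0.91 ± 0.11, all called. In each of these genes all chow livers were higher than all HFCF livers.

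The remaining members sat at the edge of the test or showed no shift. Fdft1, squalene synthase (-0.58 ± 0.12, edgeR adjusted p = 0.018), was no longer called without KO chow replicate 2 or without KO HFCF replicate 1 or 3 (edgeR adjusted p up to 0.0988). Mvk (-0.79 ± 0.20, edgeR adjusted p = 0.0558) and Dhcr7 (-0.79 ± 0.20, edgeR adjusted p = 0.0531) missed the threshold with diets that did not overlap. Ebp stood at 140, 127 and 135 CPM on chow and at 139, 133 and 129 CPM on HFCF, with overlapping diets, and Sc5d stood at -0.17 ± 0.08. Per length, the chow livers held 26.5 ± 3.09 FPKM of Cyp51 (SD, n = 3) and 7 ± 2.87 FPKM of Sqle. The number of fallen members ranged from 12 to 15 when any 1 library was left out.

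**Figure D2:**
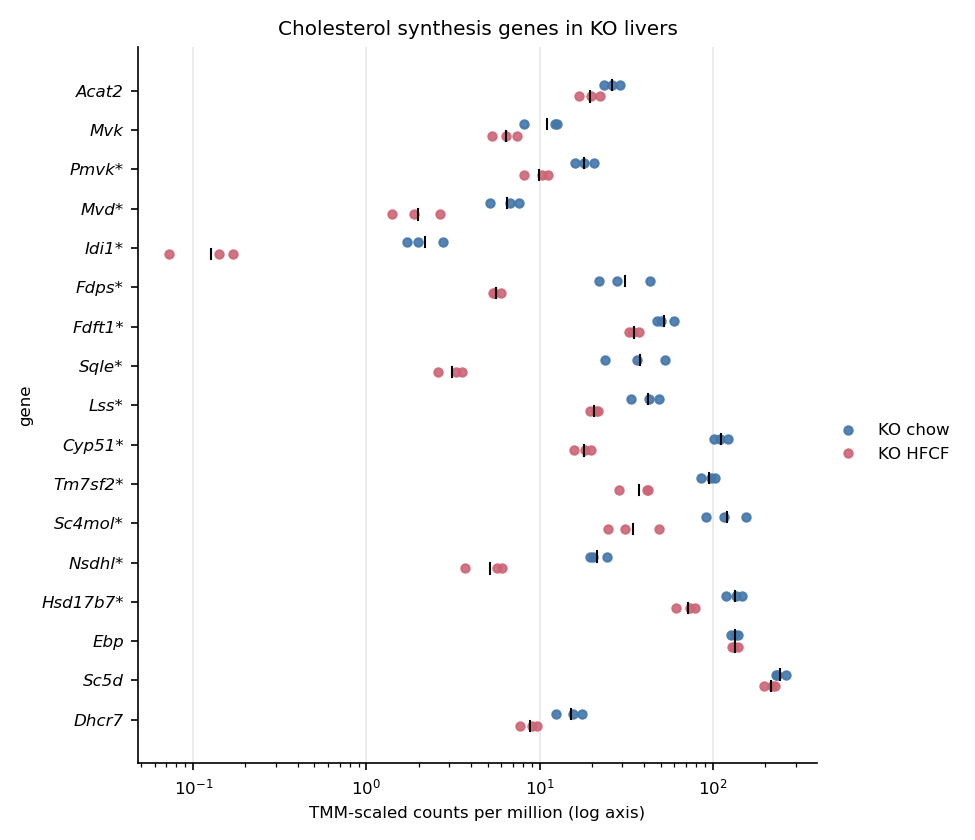
CPM (log axis) of 17 of the 19 tested cholesterol synthesis genes, in pathway order from top to bottom. Each point is a KO liver, blue on chow and red on HFCF, the black tick is the mean of 3 livers, and an asterisk marks a called gene. Idi1 shows the widest gap, from 1.73 to 2.77 CPM on chow to 0.0727 to 0.169 CPM on HFCF, and Ebp shows none.

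Genes that sense and take up sterol fell in part. Of 15 tested members 5 fell (background 1.18%), 0 rose and 10 were not called, with a median of -0.17. Insig1, the endoplasmic reticulum anchor of the SREBP pathway, went from 131, 143 and 164 CPM to 49.3, 73.6 and 51.9 CPM (-1.32 ± 0.15, edgeR adjusted p = 0.000351). Srebf2, which encodes SREBP2 itself, fell by 0.80 ± 0.10 and Stard4, a cytosolic sterol carrier, by 0.95 ± 0.16 on the log2 scale, each with diets that did not overlap.

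Tmem97 was called at -0.57 ± 0.13 (edgeR adjusted p = 0.0355), and this call ended when any 1 of the 6 libraries was left out (edgeR adjusted p up to 0.0967) and with the replicate number as a block. Scap, the escort of SREBP2, stood at 0.01 and Npc1, the lysosomal sterol transporter, at 0.07 on the log2 scale, neither of them called.

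LXR targets moved the other way. Of 12 tested members 5 rose (background 1.47%), 0 fell and 7 were not called, with a median of 0.43. Abcg5 and Abcg8 together form the canalicular sterol exporter. Abcg5 (chromosome 17, 84658234 to 84683011, minus strand) went from 98.9, 92.6 and 98.8 CPM to 223, 269 and 227 CPM (1.31 ± 0.10, edgeR adjusted p = 7.35e-06), and Abcg8 (84676302 to 84700333, plus strand) from 120, 110 and 132 CPM to 238, 257 and 225 CPM (0.99 ± 0.11, edgeR adjusted p = 0.000351). In both genes all HFCF livers were above all chow livers. Their annotated ranges overlap on opposite strands and the strand setting of the counting is not given in the sources used here, so the separate values are uncertain.

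Abca1, which loads lipid on apolipoprotein A-I, rose by 0.52 ± 0.09 (edgeR adjusted p = 0.00624) and Srebf1, the regulator of fatty acid synthesis, by 1.07 ± 0.16 (edgeR adjusted p = 0.00236). Abcg1 was called at 0.68 ± 0.13, and leaving out KO chow replicate 1 removed the call (edgeR adjusted p = 0.0705). Nr1h3, which encodes LXR alpha, stood at 0.17 and was not called. Scarb1, the HDL receptor gene from the apolipoprotein list, went from 116, 139 and 132 CPM to 186, 179 and 205 CPM (0.56 ± 0.09, edgeR adjusted p = 0.0038).

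Fatty acid synthesis and lipid droplet genes showed few calls. Of 21 tested lipogenesis genes 1 rose (Srebf1), 2 fell and 18 were not called, with a median of 0.20. Fasn, fatty acid synthase, stood at 124.7, 123.3 and 190.9 CPM on chow and at 85.4, 102 and 73.2 CPM on HFCF (-0.75 ± 0.17, edgeR adjusted p = 0.0296). Its call ended without KO chow replicate 3 or without KO HFCF replicate 1 or 3 (up to 0.113). Me1, malic enzyme, was called at -0.81 ± 0.20, and this call ended without any 1 of 5 libraries, all but KO chow replicate 2 (up to 0.197). Scd1, stearoyl-CoA desaturase, stood at 4897, 3527 and 4578 CPM on chow and at 9602, 4310 and 7517 CPM on HFCF (0.72 ± 0.29, edgeR adjusted p = 0.201). The HFCF value of replicate 2 lay inside the chow range.

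Of 18 tested lipid droplet and Pparg target genes 2 rose, 0 fell and 16 were not called. Lpl, lipoprotein lipase, went from 54.3, 44.1 and 41.5 CPM to 85.3, 106 and 107 CPM (1.09 ± 0.12, edgeR adjusted p = 0.000281). Fitm1, a droplet-forming protein gene, was called at 0.91 ± 0.20, and the call ended without KO chow replicate 1 or 2 or HFCF replicate 1 (up to 0.0991). Cidec, a droplet fusion protein gene, stood at 22, 17.5 and 13.6 CPM on chow and at 18.1, 5.11 and 14.4 CPM on HFCF (-0.50 ± 0.38, edgeR adjusted p = 0.53), with overlapping diets. Plin2, the droplet coat gene, stood at -0.20 ± 0.24 (edgeR adjusted p = 0.714). KO HFCF replicate 2 held the lowest value of the 6 for Cidec, and also for Plin2 at 473.1 CPM.

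Of 24 fatty acid oxidation and ketogenesis genes 1 fell and 0 rose. This was Cyp4a14, a fatty acid omega-hydroxylase, at 5891, 4763 and 2671 CPM on chow and 1562, 1413 and 1939 CPM on HFCF (-1.44 ± 0.25, edgeR adjusted p = 0.00736). KO chow replicate 3 was the lowest of the chow livers and still above the HFCF livers. Of 14 bile acid synthesis genes 1 rose and 1 fell. The rise was Akr1d1, which reduces bile acid intermediates (0.62 ± 0.14), and its call was lost without any chow liver or HFCF replicate 2 (up to 0.119). Cyp39a1, the 24-hydroxycholesterol 7-alpha-hydroxylase, went from 28.6, 23.9 and 19.8 CPM to 3.78, 5.46 and 9.17 CPM (-1.95 ± 0.27, edgeR adjusted p = 0.00143). Cyp7a1, the rate-limiting enzyme of the classic pathway and a target of SHP repression, stood at 817, 551 and 568 CPM on chow and at 547, 911 and 639 CPM on HFCF (0.11 ± 0.30, edgeR adjusted p = 0.89), with overlapping diets.

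Acute phase genes rose in part. Of 28 tested members 12 rose (background 1.47%), 0 fell and 16 were not called, with a median log2 fold change of 0.85. The highest were the serum amyloid genes Saa1 and Saa2, which encode apolipoproteins of inflammation. Their upstream sequences are shown because the genes are neighbours with nearly the same letters. The lines give the 250 bases before each start (RefSeq, GRCm38.p6), Saa1 at chr7:46742981-46743230 on the minus strand and Saa2 at chr7:46751583-46751832 on the plus strand, with capitals for a match to TTNNGCAAT on either strand, a motif of C/EBP factors.
Saa1: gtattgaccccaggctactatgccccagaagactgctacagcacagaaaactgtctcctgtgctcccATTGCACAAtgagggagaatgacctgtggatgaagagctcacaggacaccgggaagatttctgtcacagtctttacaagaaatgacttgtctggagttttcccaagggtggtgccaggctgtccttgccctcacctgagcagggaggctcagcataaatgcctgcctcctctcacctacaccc
Saa2: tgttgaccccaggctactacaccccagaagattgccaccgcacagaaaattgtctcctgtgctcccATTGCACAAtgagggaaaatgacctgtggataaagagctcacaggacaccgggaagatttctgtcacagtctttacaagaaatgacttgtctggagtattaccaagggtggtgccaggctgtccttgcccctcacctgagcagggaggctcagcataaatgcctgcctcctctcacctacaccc

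An alignment of these stretches had 238 identical bases, 11 mismatches and 2 gap bases, or 95.6% identity over the aligned bases. TTNNGCAAT stood in Saa1 and Saa2 among the 10 called acute phase genes with an entry, and in 1.93% of all promoters in the table. ATTGG stood in Hpx alone among these 10. Here too the patterns were chosen after the values were seen.

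Saa1 (chromosome 7, 46740501 to 46742980) stood at 266, 198 and 56.2 CPM on chow and at 2165, 2308 and 2229 CPM on HFCF (3.69 ± 0.61, edgeR adjusted p = 0.00572). Saa2 (46751833 to 46754314) stood at 111, 95.2 and 24.6 CPM on chow and at 2123, 1984 and 1902 CPM on HFCF (4.70 ± 0.60, edgeR adjusted p = 0.000956). KO chow replicate 3 was the lowest liver for both, the HFCF livers lay close together, and reads of the near-identical pair may have been split between the genes. Saa3, the family member made mainly outside hepatocytes, went from 12.6, 12.1 and 16.5 CPM to 29.7, 35.2 and 42.3 CPM (1.38 ± 0.22, edgeR adjusted p = 0.00396). Saa4, the constitutive member, stood at 0.48 ± 0.16 (edgeR adjusted p = 0.114).

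Lcn2, lipocalin 2, which binds bacterial siderophores, went from 14.3, 31 and 7.69 CPM to 154, 94.5 and 162 CPM (2.97 ± 0.51, edgeR adjusted p = 0.00669). Orm2, an orosomucoid gene, went from 32.2, 29.9 and 19.8 CPM to 154, 161 and 152 CPM (2.51 ± 0.38, edgeR adjusted p = 0.00298). Orm1 rose by 0.95 ± 0.17 from a higher level of 578, 639 and 494 CPM, and the 3 Orm genes are close paralogs, so their separate values are uncertain. Orm3 was called at 2.38 ± 0.46, and the call ended without KO chow replicate 2 or 3 or HFCF replicate 2 (edgeR adjusted p up to 0.0591). Il1rn, the interleukin 1 receptor antagonist, went from 6.92, 8.42 and 8.26 CPM to 23.2, 19.4 and 14.8 CPM (1.28 ± 0.21, edgeR adjusted p = 0.00572).

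The abundant plasma proteins rose by smaller factors. Hpx, hemopexin, which binds heme, went from 4796, 5972 and 4866 CPM to 10190, 8383 and 9709 CPM (0.86 ± 0.14, edgeR adjusted p = 0.00396). Hp, haptoglobin, which binds hemoglobin, stood at 3832, 5837 and 3788 CPM on chow and at 8798, 7542 and 8455 CPM on HFCF (0.88 ± 0.17, edgeR adjusted p = 0.0147). Its call ended without KO chow replicate 1 or 3 or HFCF replicate 1 (up to 0.0791). Per length, Saa1 rose from 290.7 ± 178 to 3593 ± 171 FPKM (SD, n = 3) on HFCF, where Hp stood at 5982 ± 381 FPKM and Hpx at 6199 ± 523 FPKM. The metallothionein genes Mt1 (1.30 ± 0.25) and Mt2 (1.47 ± 0.31) were called, and each call ended without KO chow replicate 1 or 3 and without KO HFCF replicate 2, that of Mt2 also without KO HFCF replicate 1 or 3 (edgeR adjusted p up to 0.0734 and 0.102).

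Other members did not pass. The fibrinogen genes Fga, Fgb and Fgg stood at 0.10 ± 0.17, 0.12 ± 0.16 and 0.18 ± 0.17, Crp at -0.01 ± 0.12, Lbp at 0.00 ± 0.12 and Hamp, hepcidin, at -0.25 ± 0.25 on the log2 scale. KO chow replicate 2 was the highest chow liver for several of them: Serpina3n stood at 417, 802 and 388 CPM on chow and at 980, 831 and 1098 CPM on HFCF (0.86 ± 0.24, edgeR adjusted p = 0.0742). Apcs stood at 54.7, 144 and 54 CPM on chow and at 192, 108 and 199 CPM on HFCF (0.98 ± 0.35, edgeR adjusted p = 0.154). Over the list, 16 members were called without KO chow replicate 2 and 8 without KO chow replicate 3, and the counts without KO chow replicate 1 and KO HFCF replicates 1, 2 and 3 were 9, 10, 9 and 11. Among 9 negative acute phase genes edgeR called 0 (4 at an unadjusted p under 0.05), with a median of 0.11. DESeq2 called 2 of them as rises and 0 as falls.

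**Figure D3:**
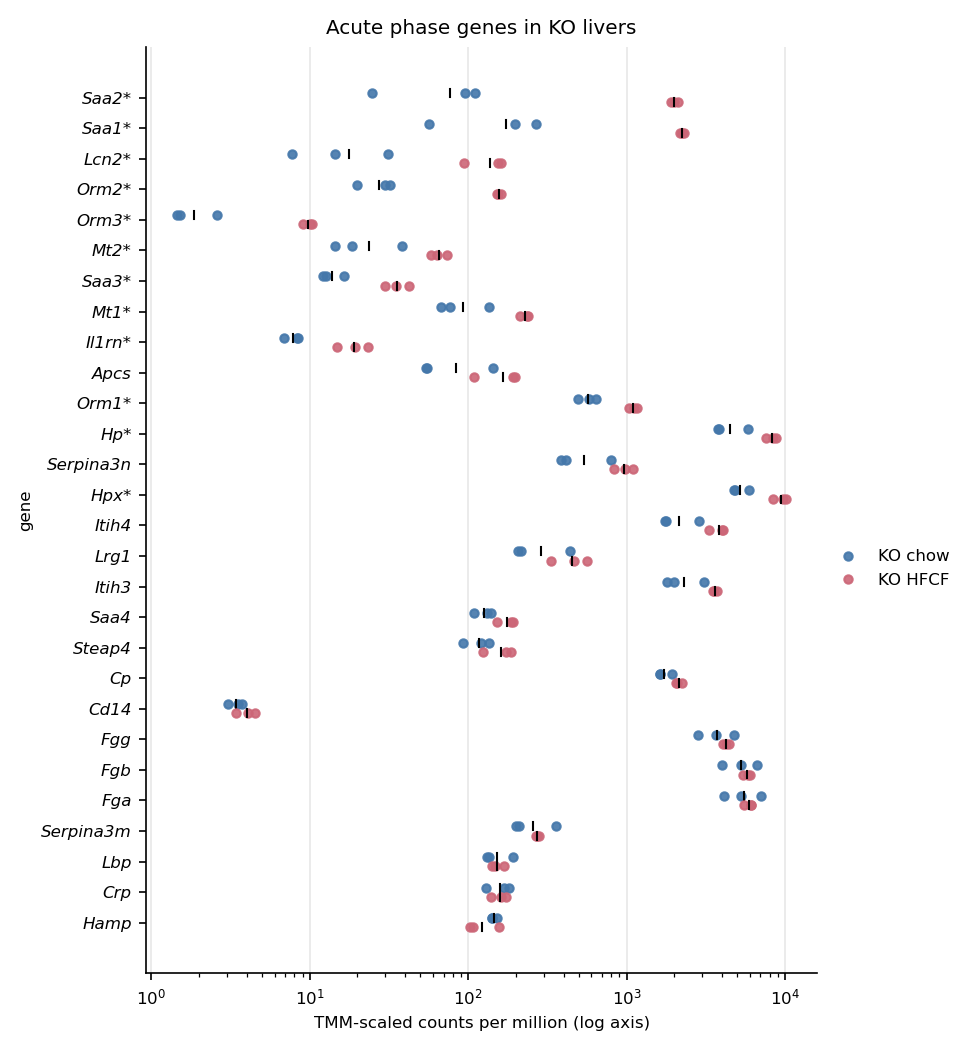
CPM (log axis) of the 28 tested acute phase genes, ordered by their log2 fold change from top to bottom. Each point is a KO liver, blue on chow and red on HFCF, the tick is the mean of 3 livers, and an asterisk marks a called gene. Saa2 and Saa1 show the widest gaps, and 1 chow liver, replicate 2, lies near the HFCF livers for Apcs, Serpina3n and Lrg1.

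The IL-6 and IL-1 signalling list showed 1 call of 20 tested, with a median of 0.08. It was Il1rn, the receptor antagonist already given above with the acute phase genes, and the other 19 were not called. The Toll-like receptor and NF-kB list showed 0 of 22 (4 at an unadjusted p under 0.05, and 0 with DESeq2). Socs3, a feedback target of IL-6 signalling, stood at 11.4, 27.3 and 12.7 CPM on chow and at 34.7, 17.1 and 19.4 CPM on HFCF (0.48 ± 0.33, edgeR adjusted p = 0.489), with overlapping diets. Of 25 complement genes 3 rose (background 1.47%). C9, the pore-forming component, stood at 388, 366 and 422 CPM on chow and at 709, 722 and 585 CPM on HFCF (0.78 ± 0.15, edgeR adjusted p = 0.0148), C4bp at 0.53 ± 0.10 and Masp2 at 0.33 ± 0.08. Each of these calls ended without KO chow replicate 1 or HFCF replicate 1, and the count over the list went to 0 without either of them and to 1 or 2 without any other. Of 21 coagulation genes 1 rose, Cpb2, an inhibitor of clot lysis (0.58 ± 0.08, edgeR adjusted p = 0.00184).

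Type I interferon-responsive genes were higher on HFCF in part. Of 35 tested members 7 rose (background 1.47%), 0 fell and 28 were not called, with a median of 0.50. In 19 of the 35 all HFCF livers lay above all chow livers, against 13.1% of all tested genes. Ifit2, an antiviral RNA-binding protein gene, stood at 6.86, 8.42 and 10.2 CPM on chow and at 20.4, 17.5 and 17.7 CPM on HFCF (1.13 ± 0.21, edgeR adjusted p = 0.0122), and Oas3, an oligoadenylate synthetase gene, at 1.05 ± 0.20 (edgeR adjusted p = 0.0119). The calls rested on single libraries: 0 members were called without KO chow replicate 1 or HFCF replicate 1, 2 without KO chow replicate 2 or HFCF replicate 2, 3 without KO chow replicate 3 and 11 without KO HFCF replicate 3. Among the interferon-gamma GTPases 1 of 18 rose, and this call remained without any library. It was Gbp11, a guanylate-binding protein gene, at 2.93, 3.11 and 3.78 CPM on chow and 12.6, 10.9 and 9.39 CPM on HFCF (1.74 ± 0.19, edgeR adjusted p = 0.000212).

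Macrophage markers had higher summed levels on HFCF with few calls. For 17 monocyte and macrophage markers edgeR called 0 (5 at an unadjusted p under 0.05, and 1 was called by DESeq2), all 17 fold changes were above 0, with a median of 0.45, and their summed level was 406.7 to 471 CPM on chow and 513.9 to 625.9 CPM on HFCF. Much of the rise in this sum came from Mpeg1, perforin-2. It stood at 151, 152 and 150 CPM on chow and at 262, 282 and 229 CPM on HFCF (0.77 ± 0.19, edgeR adjusted p = 0.0531). Of 14 Kupffer cell markers 3 rose (background 1.47%). The list's sum was 964.5 to 975.9 CPM on chow and 1124 to 1149 CPM on HFCF. Folr2, folate receptor beta, went from 10, 12.4 and 10.4 CPM to 22.2, 20.7 and 21.6 CPM (0.98 ± 0.17, edgeR adjusted p = 0.00669). Clec4f (0.50 ± 0.12) and Fcna (0.41 ± 0.10) were called, but the call of Clec4f was lost without any 1 of the 6 libraries (edgeR adjusted p up to 0.134) and that of Fcna without any but KO HFCF replicate 3 (up to 0.166). The list had 1 call without any 1 of 5 libraries and 2 without KO HFCF replicate 3.

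The part of these cells in the acute phase and interferon results was not tested. Of 13 neutrophil markers 4 were in the table, with summed levels of 5.35 to 7.11 CPM on chow and 5.54 to 6.42 CPM on HFCF. Of these 3 passed the filter, with 0 calls (0 at an unadjusted p under 0.05, and 0 with DESeq2). Of 15 T and NK cell markers 1 rose. This was Gzmb, granzyme B, which stood at 0.166, 0.069 and 0.441 CPM on chow and at 0.945, 1.19 and 0.9 CPM on HFCF (2.11 ± 0.45, edgeR adjusted p = 0.0227), and its call ended without KO chow replicate 1 or 2 or HFCF replicate 1 or 2 (up to 0.126). The summed T and NK level was 16.3 to 25.7 CPM on chow and 20 to 28.3 CPM on HFCF. Collagens and matrix genes (24), stellate cell markers (18), endothelial markers (21) and biliary markers (7) had 0 calls each with edgeR, against 4, 1, 6 and 0 at an unadjusted p under 0.05. The calls of DESeq2 were 1 collagen and matrix gene, 1 stellate marker and 0 endothelial or biliary markers.

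Immunoglobulin transcripts fell. Of 14 tested B cell and plasma cell markers 3 fell (background 1.18%), 0 rose and 11 were not called, with a median of -0.79. Their summed level was 1414 to 1570 CPM on chow and 766.7 to 945.4 CPM on HFCF. Ighg1, the IgG1 heavy chain constant region, went from 435, 506 and 467 CPM to 128, 156 and 99.9 CPM (-1.88 ± 0.14, edgeR adjusted p = 7.35e-06). Igkc, the kappa constant region, went from 262, 273 and 333 CPM to 123.2, 148.8 and 142.8 CPM (-1.06 ± 0.11, edgeR adjusted p = 0.000182), and Igj, the joining chain of IgM and IgA, from 98.4, 88.3 and 117 CPM to 53.5, 65.3 and 56.5 CPM (-0.79 ± 0.11, edgeR adjusted p = 0.00185). The diets did not overlap in any of the 3.

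The count of 3 was the same whichever library was left out. The B cell surface gene Ms4a1 lay between 0.956 and 2.77 CPM (-0.78 ± 0.32, edgeR adjusted p = 0.226). Cxcl13, the chemokine that attracts B cells, went from 3.21, 4.56 and 2.4 CPM to 0.581, 0.559 and 0.619 CPM (-2.50 ± 0.38, edgeR adjusted p = 0.00333). It was the only called member of 20 chemokine genes.

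Enzymes of drug and xenobiotic metabolism fell in part. Of 35 tested Cyp2 and Cyp3a genes 7 fell (background 1.18%) and 0 rose, with a median of -0.07. The count was 5 without KO chow replicate 1 or 2 or HFCF replicate 1 or 2. Cyp3a11, a main pregnane X receptor target, stood at 6304, 4594 and 5137 CPM on chow and at 2012, 1576 and 2353 CPM on HFCF (-1.43 ± 0.19, edgeR adjusted p = 0.00141). Cyp2c29 went from 459, 343 and 337 CPM to 193, 209 and 194 CPM (-0.93 ± 0.12, edgeR adjusted p = 0.00135), and Cyp2c38 from 113, 94.8 and 74.1 CPM to 33.6, 36.4 and 45.8 CPM (-1.28 ± 0.19, edgeR adjusted p = 0.00298). All chow livers were above all HFCF livers in each. Close paralogs make the separate values of Cyp2c and Cyp3a genes uncertain.

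Of 40 conjugation enzymes 7 fell (background 1.18%) and 0 rose, with a median of -0.19. Ugt2b37, a glucuronosyltransferase gene (chromosome 5, 87240493 to 87254804), went from 13.1, 29.5 and 26.2 CPM to 2.25, 3.5 and 2.03 CPM (-3.15 ± 0.33, edgeR adjusted p = 0.000202), and its HFCF level lay near the 2 to 5.1 CPM of the WT livers. Gstt3, a glutathione transferase gene, went from 21.8, 17.5 and 25.5 CPM to 10.5, 9.51 and 11.1 CPM (-1.06 ± 0.17, edgeR adjusted p = 0.00396). Gsta2 fell by 1.43 ± 0.24 at 1.16 to 3.99 CPM. The abundant Gstm1 stood at 673, 595 and 472 CPM on chow and at 245, 241 and 318 CPM on HFCF (-1.11 ± 0.23, edgeR adjusted p = 0.0218), and leaving out any of KO chow replicates 1 and 2 and KO HFCF replicates 1 and 2 removed the call (up to 0.103). Over the list 3 were called without KO chow replicate 1 or HFCF replicate 2, and 4 without KO HFCF replicate 1. Ahr, the aryl hydrocarbon receptor gene, was called at -0.69 ± 0.13, which ended without KO chow replicate 1 or HFCF replicate 2 (up to 0.0694).

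Bcl6, a transcriptional repressor, stood at 61.1, 31.8 and 21.6 CPM on chow and at 7.7, 7.83 and 5.51 CPM on HFCF (-2.46 ± 0.52, edgeR adjusted p = 0.0233). The chow livers spread widely, and the call ended without KO chow replicate 1 and without each of the KO HFCF replicates (up to 0.109). Mup21, a major urinary protein gene, went from 62.2, 77.6 and 80.8 CPM to 173, 200 and 135 CPM (1.20 ± 0.20, edgeR adjusted p = 0.00496), and it belongs to a family of near-identical copies. Igf1, the main growth hormone target, stood at -0.07 ± 0.10 (edgeR adjusted p = 0.797). Igfbp3, an IGF binding protein gene, went from 29.1, 29.4 and 27.7 CPM to 14.7, 14.3 and 20.5 CPM (-0.79 ± 0.14, edgeR adjusted p = 0.00667).

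The largest rise in the comparison by the naming rule belonged to no list. Moxd1, a monooxygenase related to dopamine beta-hydroxylase (chromosome 10, 24223517 to 24302790, plus strand), stood at 2.66, 0.828 and 4.79 CPM on chow and at 160, 226 and 90.6 CPM on HFCF (5.82 ± 0.40, edgeR adjusted p = 6.99e-06). It was at 0 to 0.142 CPM in the 6 WT livers. Adam11, a disintegrin family gene, went from 2.55, 3.52 and 3.28 CPM to 8.43, 12.6 and 10.9 CPM (1.78 ± 0.18, edgeR adjusted p = 0.000182). Pde6c, a phosphodiesterase gene known from cone cells, went from 1.33, 0.897 and 0.378 CPM to 2.4, 4.34 and 3.09 CPM (1.88 ± 0.34, edgeR adjusted p = 0.00865). The diets did not overlap in these 3 genes.

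Of the other genes that the rule names among the rises, Chi3l1, Chi3l3 and Clec4e, all known from myeloid cells, lay under 5 CPM, and their calls ended without 4 or 5 of the 6 libraries (edgeR adjusted p up to 0.174, 0.0964 and 0.168). Slc22a7, an organic anion transporter gene, was called at 1.77 ± 0.41, which ended without any 1 of the 6 (up to 0.127). The calls of Mup-ps22 and Fam83a ended without 5 and 4 of the 6 libraries (up to 0.103 and 0.0822), and among the falls those of Marveld3 and Dhrs9 ended without 3 and 4 (up to 0.0839 and 0.138). Cyp3a16 fell by 1.86 ± 0.30 at 0.35 to 2.35 CPM (edgeR adjusted p = 0.00437).

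In the methyl-group and sulfur metabolism list 4 of 27 rose (background 1.47%) and 0 fell. Inmt, an indolethylamine methyltransferase gene (chromosome 6, 55170626 to 55175043), went from 140, 116 and 107 CPM to 349, 328 and 327 CPM (1.47 ± 0.11, edgeR adjusted p = 7.35e-06). Bhmt, betaine-homocysteine methyltransferase, stood at 837, 938 and 1032 CPM on chow and at 1826, 1969 and 1409 CPM on HFCF (0.89 ± 0.20, edgeR adjusted p = 0.0296). This call and those of Dmgdh (0.42 ± 0.10) and Gamt (0.61 ± 0.15) each ended without 4 or 5 of the 6 libraries (up to 0.136, 0.165 and 0.142), and the list's count was 1 without KO chow replicate 1 or 2 or HFCF replicate 1 or 2.

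Several other lists held 1 or 2 calls each, from 3.12% of members (ER chaperones) to 10.5% (pericentral genes), against 2.65% of all tested genes. Counts this small are not results about the lists. Pericentral genes had 1 rise, Rgn, regucalcin (0.67 ± 0.10, edgeR adjusted p = 0.00263), and 1 fall, Ahr, of 19. Periportal and urea cycle genes had 1 fall of 18 (Sdsl, a serine dehydratase-like gene, -0.65 ± 0.13), ER chaperones and secretion genes 1 rise of 32 (Calr, calreticulin, 0.58 ± 0.14) and amino acid response genes 1 fall of 27 (Atf5, -0.50 ± 0.12). The calls of Calr and Atf5 ended without 4 of the 6 libraries each (up to 0.166 and 0.17), and that of Sdsl without 3 (up to 0.0616). In the NRF2 list 1 of 23 fell, the bile salt and nucleotide exporter gene Abcc4 (-0.75 ± 0.19). In the glucose and fructose list 2 of 25 fell, Dak, a dihydroxyacetone kinase gene (-0.54 ± 0.12), and Ppp1r3b, a glycogen-targeting phosphatase subunit gene (-0.96 ± 0.22). Each of these 3 calls was lost without 5 of the 6 libraries (up to 0.178, 0.139 and 0.131). Nuclear-encoded oxidative phosphorylation genes (74), mitochondrial ribosomal proteins (74), cytosolic ribosomal proteins (67), cell cycle genes (23) and immediate early genes (13) had 0 calls with edgeR, as did the tryptophan list (12). At an unadjusted p under 0.05 these 6 lists had 1, 4, 7, 6, 4 and 6 genes. DESeq2 called 2 immediate early genes, 1 tryptophan gene and 0 of the other 4 lists. Summed immediate early genes were 250.4 to 376.3 CPM on chow and 187.3 to 291.9 CPM on HFCF.

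**Figure D4:**
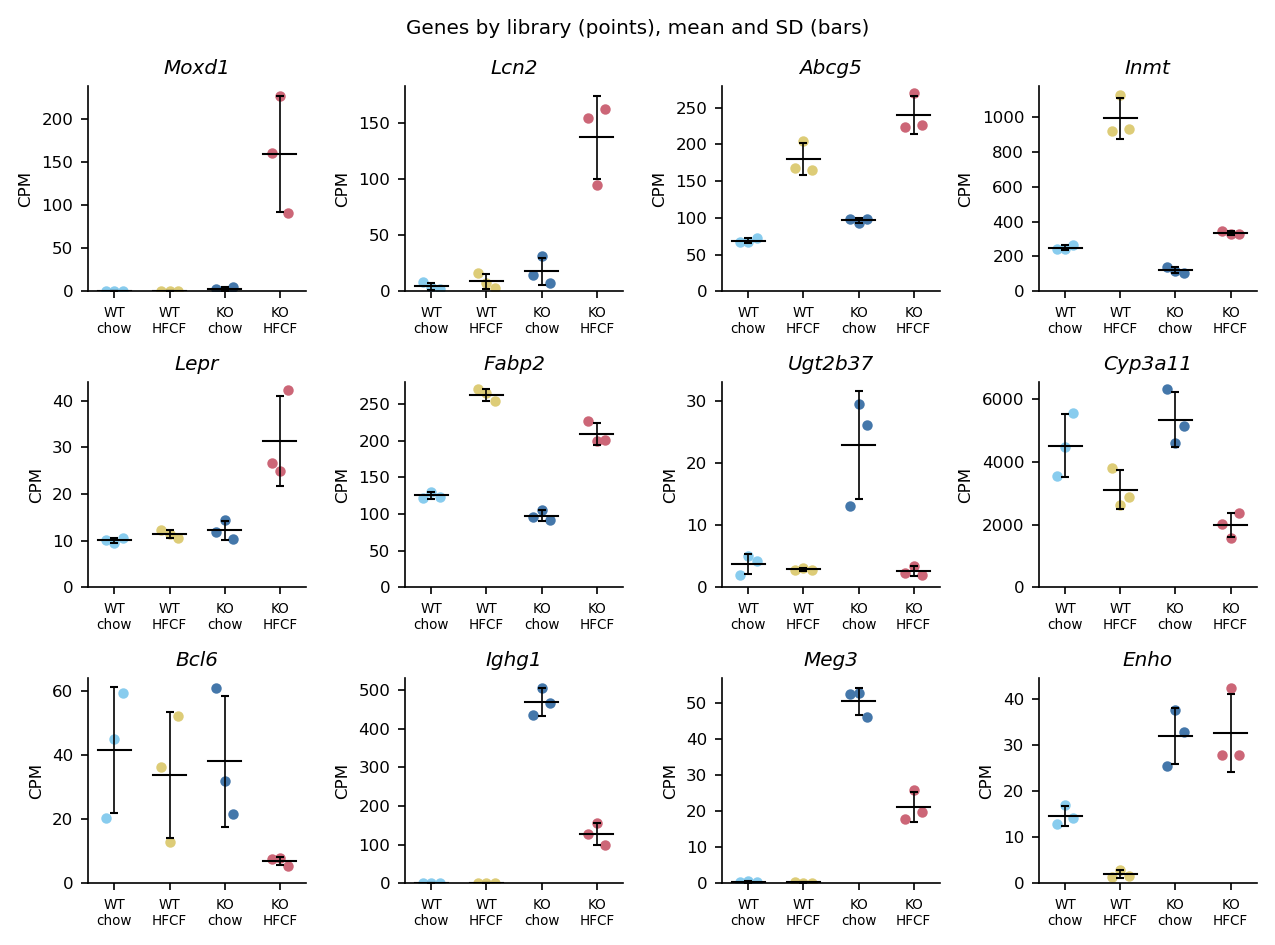
CPM of 12 genes (panels, linear axes from 0) in the 4 groups. Points are livers, the horizontal bar is the mean and the vertical bar the SD over 3 livers. Moxd1 and Lcn2 are high in the KO HFCF livers, Ighg1 is lower in KO HFCF than in KO chow livers, and Enho differs by diet in WT livers.

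The WT livers answer how much of this response also occurs with Shp present. The same contrast called 2013 genes in WT (13.7%), 1144 up (7.76%) and 869 down (5.9%). Of the 390 KO calls, 196 were also called in WT (50.3% of the KO calls and 9.74% of the WT calls), 194 of them in the same direction, 114 up and 80 down. The other 194 KO calls were not called in WT. The 2 diet comparisons share no libraries. The difference between the responses was itself tested by the interaction term, which called 117 genes (0.794%), 55 up (0.373%) and 62 down (0.421%), and 28 of these were among the 390 KO calls. For 170 of the 194 KO calls absent from WT a difference between genotypes was not called.

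Of the 14 cholesterol synthesis genes that fell in KO, 12 also fell in WT, where 14 of the 19 fell (background 5.9%). Of the 5 sterol sensing genes that fell in KO, 4 also fell in WT. For Sqle the difference between responses was -0.04 ± 0.42 and for Cyp51 -0.06 ± 0.19 on the log2 scale (edgeR adjusted p = 0.982 and 0.943). For Abcg5 it was -0.07 ± 0.14 (edgeR adjusted p = 0.885). Srebf1 rose in both, by 1.07 ± 0.16 in KO and by 2.27 ± 0.16 in WT, with an interaction of -1.20 (edgeR adjusted p = 0.0341). Among 35 type I interferon genes 17 rose in WT (background 7.76%) and 7 in KO, 4 of them in both, with 0 called interactions. The summed B cell and plasma cell level in WT was 291.8 to 359.3 CPM on chow and 209.4 to 232 CPM on HFCF. In that list 1 gene fell in WT (background 5.9%) and 3 in KO (background 1.18%), 0 in both, with 0 called interactions.

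Acute phase genes had more called interactions. In WT 2 of the 28 members rose (background 7.76%) and 2 fell (background 5.9%), near the shares over all genes. The interaction was called up for 8 of 28 (background 0.373%). Saa1 stood at -0.40 ± 0.57 and Saa2 at 0.68 ± 0.56 in WT, with interactions of 4.09 ± 0.82 and 4.03 ± 0.78 (edgeR adjusted p = 0.0423 and 0.0401). The response of Hpx was -0.16 ± 0.13 in WT, with an interaction of 1.02 (edgeR adjusted p = 0.0351). For Lcn2 (1.89 ± 0.82, edgeR adjusted p = 0.341) and Moxd1 (5.42 ± 2.94, edgeR adjusted p = 0.463) the interaction was not called. The fit for Moxd1 rests on WT levels of 0 to 0.142 CPM. Few of these interactions held without single libraries: those of Saa1 and Saa2 remained in 2 and 4 of 12 fits that each left out 1 library, and that of Hpx in 3.

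Lipid droplet genes and the matrix list had more calls in WT than in KO, as did all tested genes. The shares called as rises over all genes were 7.76% in WT and 1.47% in KO. Of 18 lipid droplet genes 13 rose in WT and 2 in KO, and of 24 collagen and matrix genes 13 rose in WT and 0 in KO. The interaction was called for 1 gene in each list (background 0.794%), Cidec (-2.62, edgeR adjusted p = 0.0401) and Col6a2 (-1.30, edgeR adjusted p = 0.0487). Col1a1, a fibrillar collagen gene, stood at 19.4, 18.1 and 21.2 CPM on chow and at 26.3, 8.95 and 24.9 CPM on HFCF in KO (0.04 ± 0.33, edgeR adjusted p = 0.969), with overlapping diets. Among the genes with the lowest interaction p by the naming rule, Cyp2c29 was called for the diet in KO. Cfd, Enho, Asns, Osbpl5, Slc6a9, Ddah1, Fam89a and Mme were not, and their differences came with calls in WT.

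**Figure D5:**
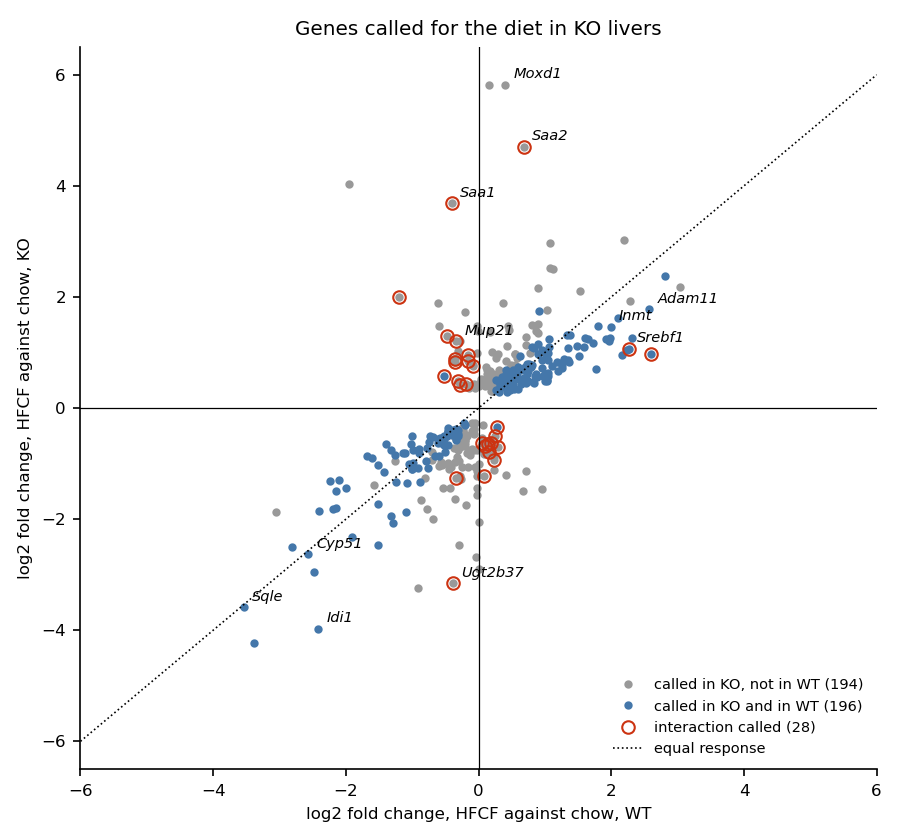
Log2 fold change of HFCF against chow in WT (x axis) and in KO livers (y axis) for the 390 genes called in KO. Blue points were also called in WT (196), grey points were not (194), red rings mark the 28 genes with a called interaction, and the dotted line marks equal responses. Sqle and Cyp51 lie near the line, while Saa1, Saa2 and Ugt2b37 lie away from it, near 0 in WT.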

How the data were processed

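Livers of 12 mice were profiled by RNA-seq from total RNA made into stranded, ribosome-depleted libraries, per the labels' protocols. The table deposited by the authors holds a read count per gene and an FPKM value per gene for each library, per the file headers, on build mm10 per the submitters' processing notes. Alignment, counting and its strand setting, and the annotation used are not given in the sources used here. Groups were taken from the labels, and all 12 libraries were mapped, with 0 columns of sample values unused.

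Counts were filtered with filterByExpr (min.count 10, min.total.count 15), which removed 1110 genes, scaled with TMM and fitted with edgeR 4.0.16 in R 4.3.3 as 4 group means over all 12 libraries, so that all groups share the estimate of spread. The quasi-likelihood test gave the KO diet contrast, the WT diet contrast and their interaction, each adjusted by Benjamini-Hochberg at 0.05. The standard error is the size of the log2 fold change divided by the square root of F. FPKM served only to compare levels between genes. On simulated counts of 14499 genes with known changes in KO, the fit called 83% of 100 genes changed by 1 on the log2 scale. It called 98% of 100 genes changed by 2, and 9 unchanged genes. The simulated spread followed its trend over expression level, without differences between genes of like level, and only genes at 1 CPM or more were changed. Recovery in the real livers may therefore be lower.

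Named genes were Nr0b2, called genes averaging 1 CPM or more over KO livers, with diets that do not overlap, taken as the top 15 in each direction by log2 fold change (provisional symbols and antigen receptor segments left out), the 10 lowest interaction p-values, and members of the lists. The 55 lists hold 1135 tested genes. The comparison, the lists and the rules were chosen with earlier results of these data known. The 250 bases before RefSeq start sites (GRCm38.p6) were searched on both strands for 16 letter patterns, chosen after the values were seen. Besides the 3 in the text these were TCACCCCAC, CACCCCAC, TCACNCCAC (Saa3), TCACCNCAC (Hsd17b7), CACCCCACT, GGGACTTTC, a longer NF-kB pattern, GGAAATTCC, GGGNNTTCC, TTGCGCAAT, TTCNNGGAA, TTCNNNGAA and TTCCNGGAA. Their shares of all promoters were 0.496%, 2.58%, 1.05%, 1.11%, 0.46%, 0.289%, 0.356%, 0.286%, 4.98%, 0.0487%, 4.06%, 7.02% and 0.913%, and a gene is named where a member of the sterol or acute phase set held the pattern. Several of these patterns overlap each other.

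Alternatives were 2 other scalings, no filter, a filter at min.count 50, DESeq2 1.42.0, limma 3.58.1 with voom, the replicate number as a block, a fit of the compared groups only, and each library left out in turn. Values of some genes are not reported here, and counts over lists and over all genes include them.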

Additional observations from a re-analysis of the deposited data

Results flagged for a closer look

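Among the genes that the text names or that a list holds as called, the diet response differed between KO and WT livers by the interaction term of edgeR's quasi-likelihood test for those given here, each as the log2 response in KO minus that in WT. The groups of 3 livers are too small to look for single outlying samples, and 117 interactions were called in all.

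In genes of the acute phase and of secretion the interaction was positive, from a rise in KO, a fall in WT or both. Saa1, Saa2, Mt1, Hp, Orm1 and Hpx were called for the diet in KO and not in WT. Fgl1 (0.76 in KO and -2.12 in WT on the log2 scale), Itih3 (0.65 and -0.86), Hspa5 (0.40 and -0.64) and Hsp90b1 (0.39 and -0.51) were called as falls in WT and not called in KO. Calr was called in both, at 0.58 and -0.51, and Itih4 in neither, at 0.84 and -0.64. The differences were 4.09 for Saa1, 4.03 for Saa2, 2.87 for Fgl1, 1.77 for Mt1, 1.51 for Itih3, 1.48 for Itih4, 1.23 for Hp, 1.12 for Orm1 and 1.02 for Hpx. The ER chaperone genes Calr, Hspa5 and Hsp90b1 differed by 1.10, 1.04 and 0.90. Of these 12 genes Itih3 remained called in 5 of the 12 fits that each left out 1 library, Saa2 and Calr in 4, and the others in 1 to 3.

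Other genes had a called response in WT alone. Cfd, adipsin, stood at 1.72, 1.42 and 3.94 CPM on chow and at 104, 217 and 130 CPM on HFCF in WT, against 0.996, 1.31 and 1.89 CPM and 0.654, 0.49 and 1.01 CPM in KO, a difference of -6.88. Enho, adropin, stood at 12.8, 16.9 and 14.1 CPM on chow and at 1.42, 2.92 and 1.55 CPM on HFCF in WT, against 25.6, 37.7 and 32.9 CPM and 27.8, 42.5 and 27.8 CPM in KO, a difference of 2.95. Asns, asparagine synthetase, differed by 4.08 and Osbpl5, an oxysterol-binding protein gene, by -1.95.

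The interactions of Cfd, Enho, Osbpl5, Slc6a9 (-1.21), Asns and Cyp2c29 (-1.16) remained called in all 12 fits that left out 1 library, and those of Ddah1 (-0.97), Fam89a (1.21) and Mme (-1.01) in 11.

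The other interactions given here remained in 6 or fewer of 12. Lipid genes differed by -2.75 for Thrsp, -2.62 for Cidec and -1.20 for Srebf1. Gpnmb, a marker of lipid-laden macrophages, differed by -4.99, Fcna by 0.69, Col6a2 by -1.30 and Abca3 by -0.77. Enzymes and hormone-related genes differed by -2.76 for Ugt2b37, -0.79 for Gsta4, -0.61 for Gsta3, -0.92 for Maoa, 1.97 for Nnmt, 1.00 for Mat1a, 1.54 for Mup21 and -0.95 for Igfbp3.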

How the results depend on the processing

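The 390 KO calls became 656 with DESeq2 (365 shared) and 603 with the compared groups alone (353 shared), and the 117 interaction calls became 344 with DESeq2. The causes were not tested. Leaving out 1 library gave 157 to 336 KO calls, 1100 to 2264 WT calls and 11 to 136 interaction calls, the fewest without KO HFCF replicate 2. The other scalings, the filters and voom gave 375 to 440 KO calls. No KO call changed sign, 126 remained without any 1 library and 305 in every other alternative that gave an adjusted p. Same-numbered KO libraries had correlated deviations of -0.038, -0.047 and -0.148, so the numbers were not used as pairs, and whether they mark a shared cage or day is not given. With the replicate block 386 KO (334 shared), 1813 WT and 97 interaction genes were called. Genes at a few CPM are limited by their counts, and 3 livers per group limit the rest.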

Other observations

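Genes that convert steroids and retinoids, and imprinted genes, were looked at after their values were seen, so these counts carry no test of the groups. Of 23 steroid-converting enzymes 6 rose (background 1.47%) and 1 fell (1.18%) in KO livers. Hsd3b3, a 3-beta-hydroxysteroid dehydrogenase gene, went from 42.7, 40.7 and 62.8 CPM to 108, 134 and 103 CPM (1.24 ± 0.17, edgeR adjusted p = 0.00142), and Hsd3b2 rose by 0.94 ± 0.15. The close paralogs make their separate values uncertain. Hsd17b6 was called at 1.07 ± 0.21, Srd5a1 at 0.68 ± 0.14 and Hsd17b10 at 0.46 ± 0.09, and these calls were lost without 3, 3 and 1 of the 6 libraries (edgeR adjusted p up to 0.0608, 0.0822 and 0.0608).

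Of 27 retinoid-converting enzymes 5 fell (background 1.18%) and 1 rose (1.47%). Rdh11, a retinal reductase gene, went from 30.6, 28.4 and 32.8 CPM to 11.7, 12.7 and 12 CPM (-1.33 ± 0.10, edgeR adjusted p = 9.35e-06). Cyp26a1, which degrades retinoic acid, went from 4.87, 8.07 and 7.69 CPM to 0.945, 3.29 and 2.31 CPM (-1.64 ± 0.32, edgeR adjusted p = 0.0141), and Sdr9c7 fell by 1.05 ± 0.19. The diets did not overlap in these 3 genes.

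Of 20 imprinted genes, also listed after their values were seen, 2 fell (background 1.18%). Meg3, a maternally expressed long RNA, went from 52.5, 52.9 and 46.2 CPM to 17.8, 26 and 19.7 CPM (-1.25 ± 0.14, edgeR adjusted p = 0.000351), and Peg3 fell by 0.81 ± 0.11. Lepr, the leptin receptor gene, went from 11.8, 14.4 and 10.5 CPM to 26.7, 25 and 42.4 CPM (1.37 ± 0.18, edgeR adjusted p = 0.000996), with an interaction at edgeR adjusted p = 0.0523. Fabp2, the intestinal fatty acid binding protein gene, went from 95.8, 106 and 91.6 CPM to 227, 200 and 201 CPM (1.10 ± 0.08, edgeR adjusted p = 7.35e-06). Crybb3, a lens crystallin gene, had 1 count in the chow livers and 74 in the HFCF livers, 78.2 times as many (95% counting interval 13.6 to 3130). Cyp2b10, a constitutive androstane receptor target, had 66 and 3 counts, 20.8 times as many on chow (interval 6.82 to 104), and these intervals cover counting error only.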
